A study of Mus musculus with 6 samples.

Results

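Fcer1g, Tyrobp, Hcst and Ncr1, the genes of 3 signalling adaptors and 1 receptor best known from natural killer (NK) cells, were followed in mouse invariant natural killer T (iNKT) cells taken from the liver, the spleen and lymph nodes. They were taken by gene symbol from the gene lists of the libraries, in which each symbol named 1 gene, so that the members were 4 of the 27998 genes listed. Each organ had 2 libraries, 6 in all, made from cells of wild-type C57BL/6 mice aged 5 weeks. Strain, genotype and age were thus shared by all groups, and the labels separate them by organ. The cells had been depleted of CD8+ and B220+ cells and sorted as TCR-b+ CD1d-tetramer+ cells, and RNA was counted as unique molecular identifiers (UMIs, a tag that marks each captured RNA molecule) with 10x Genomics 3′ chemistry. The study's methods describe the 2 libraries of an organ as biological repeats, and whether mice were pooled is not given in the sources used here.

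iNKT cells carry an invariant T cell receptor for lipids held by CD1d, and their main signalling chains are those of the CD3 complex. Fcer1g encodes the Fc receptor gamma chain and Tyrobp encodes DAP12. Both are short transmembrane proteins whose cytoplasmic ITAM motif recruits the kinases Syk and Zap70 when a partner receptor is bound. Hcst encodes DAP10, an adaptor without an ITAM that recruits PI3-kinase and Grb2 and passes on signals of NKG2D, the product of Klrk1. Ncr1 encodes NKp46, an activating receptor of NK cells that signals through the Fc receptor gamma and CD3 zeta chains. The questions put to the data were how much RNA of each gene the iNKT cells of each organ held, and how much of it lay in cells that also held Gzma, the gene of the cytotoxic granule protease granzyme A.

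In the GENCODE M21 annotation of GRCm38, the assembly also called mm10, Fcer1g (ENSMUSG00000058715) lies on the minus strand at chr1:171229572-171234365. Tyrobp (ENSMUSG00000030579, plus strand, chr7:30413760-30417585) and Hcst (ENSMUSG00000064109, minus strand, chr7:30417712-30419854) are neighbours whose 3′ ends face each other with 126 bases between them. Ncr1 (ENSMUSG00000062524) lies on the plus strand at chr7:4337724-4345164. All 4 are protein-coding genes, and none overlaps another annotated gene. Sequences before the start site were found for 3 of the 4 members in the RefSeq promoter table (GRCm38.p6), and Tyrobp is named only. The 250 bases before the start are shown for these 3 genes so that the window of Hcst, found in most cells, can be set beside those of Fcer1g and Ncr1, found in few. They are read 5′ to 3′ on the gene's own strand, from chr1:171234350-171234599 (minus strand) for Fcer1g, chr7:30419855-30420104 (minus strand) for Hcst and chr7:4337465-4337714 (plus strand) for Ncr1. The start is that of RefSeq, which lies 16 bases downstream of the GENCODE start for Fcer1g, so that the window runs into the gene as given above, and 9 bases upstream of it for Ncr1, while both agree for Hcst. Capitals mark matches, on either strand, to 3 motifs of factor families active in cytotoxic lymphocytes, namely AGGAAGT (ETS), GGTGTGA (T-box) and TGTGGT (Runx).
Fcer1g: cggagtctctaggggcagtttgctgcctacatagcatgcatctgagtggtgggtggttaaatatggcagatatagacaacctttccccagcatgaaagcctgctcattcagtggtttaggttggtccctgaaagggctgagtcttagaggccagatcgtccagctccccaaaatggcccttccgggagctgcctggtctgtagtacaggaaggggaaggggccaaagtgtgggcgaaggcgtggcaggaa
Hcst: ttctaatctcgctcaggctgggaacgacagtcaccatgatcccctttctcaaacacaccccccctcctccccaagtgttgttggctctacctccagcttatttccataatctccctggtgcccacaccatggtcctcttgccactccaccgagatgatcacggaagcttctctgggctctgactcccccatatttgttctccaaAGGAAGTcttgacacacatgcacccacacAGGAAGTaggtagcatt
Ncr1: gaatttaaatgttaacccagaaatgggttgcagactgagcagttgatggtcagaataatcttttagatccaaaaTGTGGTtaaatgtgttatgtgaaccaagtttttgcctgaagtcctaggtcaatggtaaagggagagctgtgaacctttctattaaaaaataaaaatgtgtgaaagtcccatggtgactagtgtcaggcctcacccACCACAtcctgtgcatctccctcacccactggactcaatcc

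The Hcst window held the ETS letters at 2 places, beginning 46 and 17 bases before the start. The Ncr1 window held the Runx letters at 176 bases and, as ACCACA on the other strand, at 41 bases before the start. None of the 3 motifs was spelled in the Fcer1g window, and the T-box letters were in none of the 3 windows. Of 32851 windows of the same length, 7.69% held the ETS letters, 3.33% the T-box letters and 14.0% the Runx letters. A match describes letters only and not a bound site.

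The libraries kept between 2638 and 2861 cells each, 16532 in all, with 4758138 to 10870838 UMIs per library in the cells kept and median counts of 1470 to 3592 UMIs per cell. The liver libraries were the deepest. Cd3d, Cd3e or Cd3g was counted in 99.2% to 99.7% of the cells of a library. Of 88 cells with at least 2 myeloid markers, 85 also held such a UMI. Of 12 cells with at least 2 B cell markers, 8 did. The share of cells with a Cd3 UMI therefore does not settle by itself that each cell was a T cell. The NK cell list (Eomes, Klra8, Klra4, Klre1, Gzma and Prf1) summed to 197 to 231 CPM (counts per 1000000 UMIs of the genes kept) in liver, 77.9 to 83.5 CPM in spleen and 22.2 to 23.0 CPM in lymph node. Eomes was at 0 in both liver libraries and in lymph node library 1. The list of 11 myeloid markers summed to 202 to 245 CPM in liver, 218 to 224 CPM in spleen and 285 to 368 CPM in lymph node. Of these 11, liver libraries held 9 and 10, spleen libraries 3 and 4 and lymph node libraries 7 and 8. S100a9 was at 0 in all 6, S100a8 in all but liver library 2, Clec4f outside liver, and Csf1r, Spi1, C1qb and C1qc in both spleen libraries. Xist was counted at 5401 to 10404 UMIs in the liver and spleen libraries and at 0 in both lymph node libraries, whereas Y-chromosome genes were counted at 1362 and 1579 UMIs in those of lymph node and at 0 elsewhere. A difference between lymph node and another organ therefore cannot be told apart from a difference between these sets of mice. Each pair of libraries shared 6 to 20 cell barcodes.

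Fcer1g was highest in liver and lowest in lymph node. It was counted at 62.9 and 93.1 CPM in the liver libraries (448 and 570 UMIs), 52.6 and 38.1 CPM in the spleen libraries (204 and 138 UMIs) and 14.7 and 23.8 CPM in the lymph node libraries (55 and 87 UMIs). The 2 libraries of each organ lay apart from those of the other organs, with means of 78 ± 21.4, 45.4 ± 10.2 and 19.3 ± 6.44 CPM (SD, n = 2). In edgeR's quasi-likelihood test on the sums per library, the liver level was 1.96 ± 0.28 log2 units (SE) above that of lymph node, a 3.90-fold difference (adjusted p = 0.000631), and the spleen level was 1.26 ± 0.31 above it, a 2.40-fold difference (edgeR adjusted p = 0.0218). Of the 10189 genes tested, 37.5% were called for liver over lymph node and 18.2% for spleen over lymph node. Liver over spleen gave 0.70 ± 0.25 (edgeR adjusted p = 0.0749), where 25.6% of all genes were called. The interval of ± 2 SE ran from 0.20 to 1.2. Whether liver and spleen, the neighbours in this order, were separated for Fcer1g at the threshold of 0.05 depended on the setting. The value was 0.99 without the first liver library (edgeR adjusted p = 0.00111) and 0.37 without the second (0.174), and it passed at 0.70 without either lymph node library (0.0290 and 0.0310). It also passed in DESeq2 (adjusted p = 0.0421) and, by edgeR, with all genes kept (1.01e-05), with the replicate block (0.0421) and in cells with a Cd3 UMI (0.0374). The spleen difference from lymph node missed the threshold without spleen library 1 (1.04) or without lymph node library 1 (0.96).

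Few cells held this RNA. An Fcer1g UMI was found in 8.39% and 8.81% of the liver cells, 4.14% and 3.47% of the spleen cells and 1.55% and 1.90% of the lymph node cells, 787 cells in all. The cells with a UMI held 1.34 to 2.26 Fcer1g UMIs on average, and the highest count in a cell was 19, in liver library 2. If the same UMIs had been spread over cells in proportion to each cell's depth, more cells would have carried them, since the observed number was 0.500 to 0.755 of that expected. After every cell was thinned to 1000 UMIs, with 0 to 488 shallower cells of a library left out, the share of cells with an Fcer1g UMI was 3.83% in liver against 2.48% in spleen and 0.993% in lymph node. The exact permutation test, with 15 arrangements of the organs over the libraries, gave p = 0.0667, the smallest it can give (adjusted p = 0.0889 over the 4 members). From sums over a library, fewer cells with a transcript and less transcript per cell cannot be told apart.

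Tyrobp, the DAP12 gene, was separated more clearly between liver and the other organs. It was counted at 33.0 and 46.2 CPM in liver (235 and 283 UMIs), 14.7 and 12.2 CPM in spleen (57 and 44 UMIs) and 5.88 and 9.85 CPM in lymph node (22 and 36 UMIs). The organ means were 39.6 ± 9.36, 13.4 ± 1.79 and 7.87 ± 2.81 CPM (SD, n = 2), and no library overlapped with those of another organ. Liver exceeded spleen by 1.48 ± 0.22 log2 units, or 2.78-fold (edgeR adjusted p = 1.51e-05), and lymph node by 2.27 ± 0.24, or 4.83-fold (edgeR adjusted p = 1.23e-08). Spleen over lymph node gave 0.80 ± 0.29 and narrowly missed the threshold (edgeR adjusted p = 0.0534, interval of ± 2 SE from 0.22 to 1.37). It passed with all genes kept (0.80, edgeR adjusted p = 0.0251), with the replicate block (0.82, 0.0284), in cells with a Cd3 UMI (0.82, 0.0344) and without either liver library (0.79 each, 0.0411 and 0.0463), and missed it in DESeq2 (0.79, 0.157).

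Myeloid cells also express Tyrobp and Fcer1g, and cells with at least 2 myeloid markers or at least 2 B cell markers were therefore counted. There were 88 cells with 2 myeloid markers, 45 from liver, 3 from spleen and 40 from lymph node, and 85 of them also held a Cd3 UMI. The myeloid-marked and B cell-marked cells held 31.8% and 44.4% of the Tyrobp UMIs of the lymph node libraries, 2.98% and 21.6% of those in liver and none of those in spleen. Without them the Tyrobp level was 32.3 and 36.9 CPM in liver, 14.7 and 12.2 CPM in spleen and 4.03 and 5.56 CPM in lymph node, and spleen over lymph node became 1.51 (edgeR adjusted p = 0.000246). The same cells held 3.13% and 14.0% of the Fcer1g UMIs in liver, none in spleen, and 7.27% and 17.2% in lymph node. Without them Fcer1g stood at 61.4 and 81.4 CPM in liver, 52.6 and 38.2 CPM in spleen and 13.7 and 20.0 CPM in lymph node. Liver over spleen was then 0.57 and passed the threshold (edgeR adjusted p = 0.0193). With all cells kept, the spleen over lymph node value of Tyrobp also moved with the lymph node library used. It was 0.48 without lymph node library 1 (edgeR adjusted p = 0.420) and 1.19 without library 2 (0.0388).

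A Tyrobp UMI was present in 5.32% and 5.70% of liver cells, 1.5% and 1.47% of spleen cells and 0.607% and 0.772% of lymph node cells, 430 cells in all. On cells thinned to 1000 UMIs these shares were 2.01%, 0.947% and 0.550% (exact permutation p = 0.0667, adjusted p = 0.0889). The Tyrobp UMIs were also held by fewer cells than an even spread would give, 0.613 to 0.896 of the expected number. For scale, the 12 cells with at least 2 B cell markers, in which neither adaptor is a typical transcript, held Fcer1g UMIs in 0 and Tyrobp UMIs in 2 cells (16.7%), at a median depth of 1646 UMIs per cell against 1949 in the cells without either kind of marker. With 12 cells this background is known only to within wide limits (exact 95% interval 0% to 26.5% for Fcer1g and 2.09% to 48.4% for Tyrobp). The Tyrobp shares of all 6 libraries lay below that of these cells, 8 of which also held a Cd3 UMI, and the part of free RNA was not tested.

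**Figure D1:**
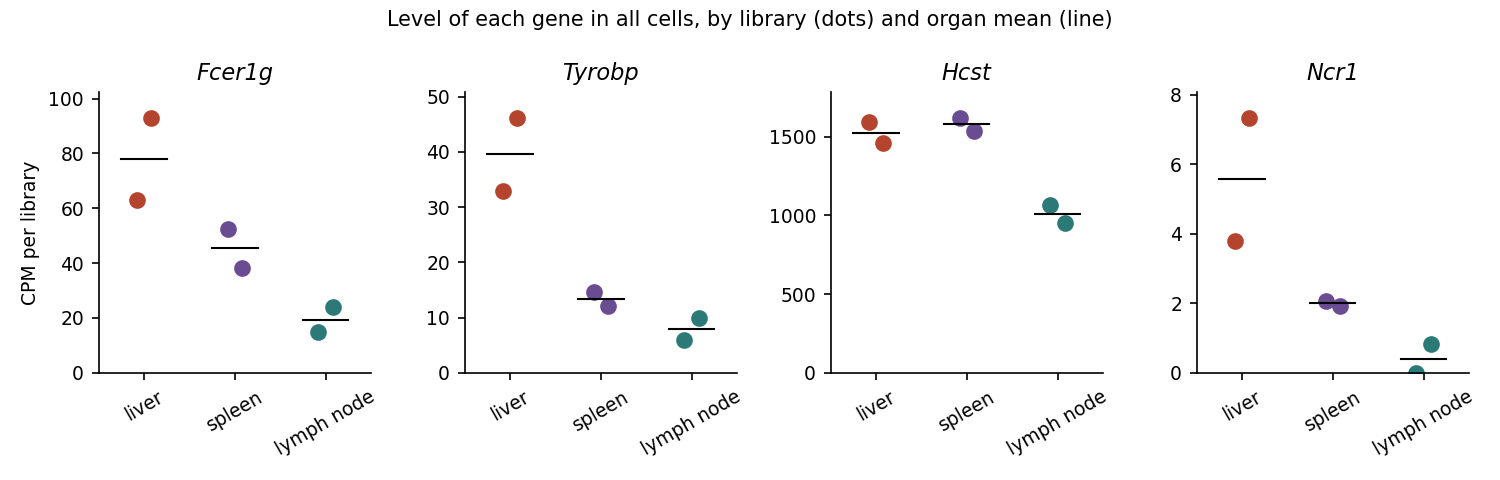
Level of each gene in CPM (vertical axis, linear, from 0) in the 6 libraries, with 1 dot per library and a line at the organ mean. Fcer1g, Tyrobp and Ncr1 stepped down from liver to spleen to lymph node, while Hcst was alike in liver and spleen (means of 1527 and 1580 CPM) and lower in lymph node (1007 CPM).

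Hcst, the DAP10 gene, had another pattern. Its level was 1593 and 1461 CPM in liver (11349 and 8944 UMIs), 1622 and 1537 CPM in spleen (6295 and 5563 UMIs) and 1065 and 950 CPM in lymph node (3981 and 3470 UMIs). The liver and spleen libraries overlapped and both lymph node libraries lay below them. The liver and spleen levels differed by -0.13 ± 0.12 log2 units (edgeR adjusted p = 0.465), and the interval of ± 2 SE ran from -0.37 to 0.11. Hcst exceeded its lymph node level 1.46-fold in liver (log2 0.54 ± 0.12, edgeR adjusted p = 0.000672) and 1.59-fold in spleen (log2 0.67 ± 0.12, edgeR adjusted p = 0.000115). The 3 organ comparisons share libraries and are not independent of each other.

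Hcst RNA was found in most cells of each organ. A UMI was found in 94.4% and 90.5% of liver cells, 85.7% and 82.9% of spleen cells and 72.7% and 66.4% of lymph node cells. These shares were close to those of an even spread, with an observed number of cells 0.989 to 1.01 times that expected. On thinned cells the order of liver and spleen turned, with 63.6% in liver against 68.1% in spleen and 53.2% in lymph node (exact permutation p = 0.0667, adjusted p = 0.0889), as did the order of the mean CPM.

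Ncr1 was counted at a low level, 90 UMIs in 51 cells over all libraries. The liver libraries held 27 and 45 of these UMIs (3.79 and 7.35 CPM), the spleen libraries 8 and 7 (2.06 and 1.93 CPM) and the lymph node libraries 0 and 3 (0 and 0.821 CPM). Both liver libraries lay above both spleen libraries, and these above the lymph node libraries. A count of 0 in lymph node library 1 allows a level of up to 0.802 CPM. It sets no limit on the share of its cells that hold the transcript. The summed liver level was 13.4 times that of lymph node (exact 95% interval 4.40 to 66.5 for counting error only) and the summed spleen level was 4.93 times it (1.39 to 26.6). Liver over spleen was 2.72 by the same count (1.54 to 5.1). Ncr1 passed the filter on low counts only through the 2 liver libraries, since the filter's limit was 2.62 CPM and the other 4 libraries lay below it, so a call for liver is that of a gene let in by its liver level. In that fit edgeR gave log2 1.37 ± 0.49 for liver over spleen (adjusted p = 0.0378), and with all genes kept, where no such choice was made, 1.41 (adjusted p = 0.0153). The call was lost without liver library 2 (0.82), spleen library 1 (1.40) or spleen library 2 (1.35) and in DESeq2 (1.39, adjusted p = 0.225). Over lymph node, edgeR's adjusted p was 0.000114 for liver and 0.0820 for spleen, and 2.10e-07 and 0.0532 with all genes kept. Spleen passed only without lymph node library 2 (adjusted p = 0.0435), where no Ncr1 UMI remained in lymph node and the fitted value of 6.36 is no bound. On cells thinned to 1000 UMIs the mean share of cells with an Ncr1 UMI was 0.335% in liver, with 0.0596% for spleen and 0.0212% for lymph node (exact permutation p = 0.133, adjusted p = 0.133). In 1 cell of liver library 2 there were 9 Ncr1 UMIs, and the 10 cells with the most held 26 of the 27 UMIs in liver library 1.

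Gzma was counted in 133 and 131 cells of the liver libraries, 35 and 33 of the spleen libraries and 11 and 12 of the lymph node libraries, 355 cells in all, of which 352 also held a Cd3 UMI. Of the 355, 244 held a single Gzma UMI, the fewest that the gate takes. Gzma cells made up 4.75% and 4.58% of liver cells, 1.28% and 1.24% of spleen cells and 0.417% and 0.421% of lymph node cells. Their median depth was 3610 against 3589 UMIs for other cells in liver library 1 and 3128 against 2873 in liver library 2. It was 1701 against 1725.5 and 2383 against 1553 in spleen, and 2293 against 1726 and 2222 against 1470 in lymph node. Levels in CPM are therefore given beside shares of cells. The other 5 genes of the NK list summed to 75.2 to 370 CPM in Gzma cells and 12.1 to 155 CPM in the remaining cells of the libraries. Within each library they were higher in Gzma cells. A list of 4 T cell markers was lower in Gzma cells within each library, at 3968 to 4905 CPM against 4413 to 5645 CPM.

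Within libraries, Fcer1g and Tyrobp were higher and Hcst was lower in cells with Gzma UMIs. Fcer1g stood at 186 and 355 CPM in the liver Gzma cells against 55.3 and 78.1 CPM in the remaining liver cells. In spleen it was 432 and 114 CPM against 46.6 and 36.6 CPM, and in lymph node 0 and 75.2 CPM against 14.8 and 23.4 CPM. Fcer1g was thus higher in Gzma cells in 5 of 6 libraries, and the 0 of lymph node library 1 came from 11 cells and allows up to 146 CPM. With the library as a block, edgeR gave a difference of 2.05 ± 0.17 log2 units, 4.14-fold (adjusted p = 6.49e-29), where 1.92% of 8632 genes were called and the median over all genes was -0.10.

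Tyrobp was higher in Gzma cells in 6 of 6 libraries. It was 135 and 144 CPM against 26.7 and 40.6 CPM in liver, 133 and 100 CPM against 12.8 and 10.4 CPM in spleen, and 48.6 and 75.2 CPM against 5.65 and 9.37 CPM in lymph node. The lowest value in Gzma cells exceeded the highest value in other cells, but it was 1 UMI in the 11 Gzma cells of lymph node library 1. The value of lymph node library 2 was 2 UMIs in 12 Gzma cells. The difference between cells with and without Gzma UMIs was 2.26 ± 0.22 log2 units, or 4.80-fold (edgeR adjusted p = 1.83e-21). Fcer1g and Tyrobp kept their calls with each library left out in turn, where Fcer1g ranged from 1.90 to 2.21 and Tyrobp from 2.18 to 2.64.

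Hcst was lower in Gzma cells in 6 of 6 libraries, with 1275 and 1295 CPM against 1613 and 1470 CPM in liver, 1329 and 716 CPM against 1627 and 1554 CPM in spleen, and 534 and 864 CPM against 1068 and 950 CPM in lymph node. The fall was -0.60 ± 0.13 log2 units, to 0.658 of the level in other cells (edgeR adjusted p = 0.000472). It was lost without spleen library 2 (-0.48, edgeR adjusted p = 0.112), in DESeq2 (-0.49, adjusted p = 0.0906), with the gate at 2 or more Gzma UMIs (-0.93, edgeR adjusted p = 0.129) and with the gate set on thinned cells (-0.55, edgeR adjusted p = 0.257). Ncr1 did not pass the filter on low counts in this comparison. Its UMIs lay in Gzma cells to 10 of 27 and 11 of 45 in liver, 0 of 8 and 1 of 7 in spleen and 2 of 3 in lymph node library 2, 24 of 90 in all. With all genes kept, edgeR gave 2.80 ± 0.37 for Ncr1 (adjusted p = 7.84e-09).

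**Figure D2:**
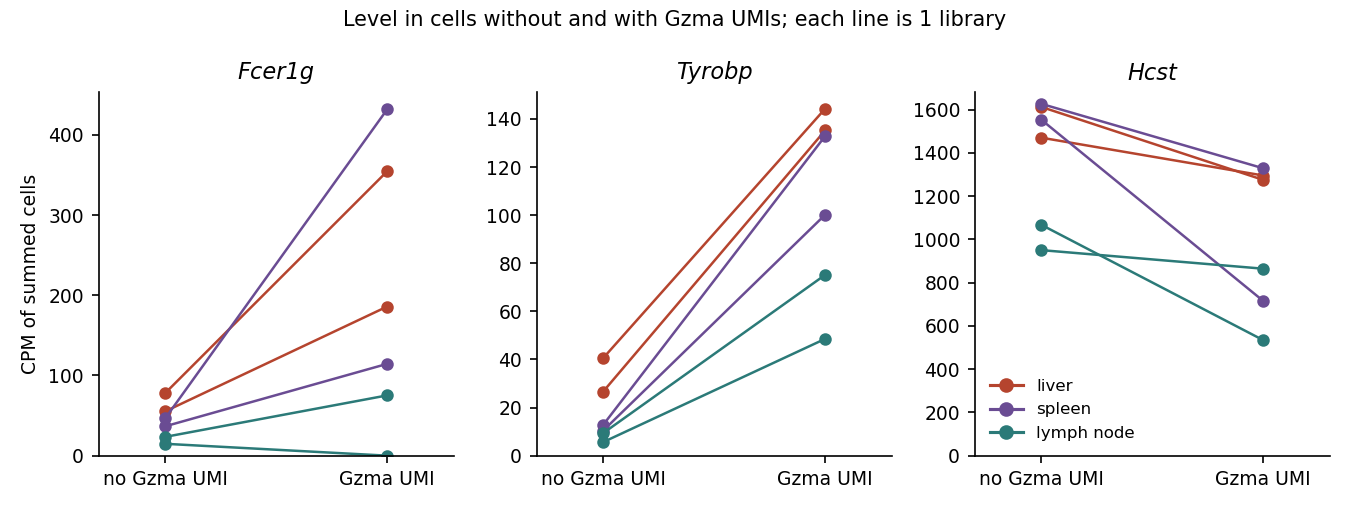
Level in CPM (vertical axis, linear, from 0) in the summed cells without and with a Gzma UMI, with 1 line per library and colours for the organs. Lines of Tyrobp rise in 6 of 6 libraries and those of Fcer1g in 5 of 6, and lines of Hcst fall in 6 of 6.

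Shares of cells with a UMI were compared within libraries, since liver gave most Gzma cells and the deepest libraries. Fcer1g was found in 0% to 32.1% of the Gzma cells of a library and in 1.56% to 7.72% of its other cells, and was the more frequent in Gzma cells in 5 of 6 libraries. Tyrobp was found in 8.57% to 16.7% against 0.571% to 5.42%, more frequent in 6 of 6. Hcst was found in 54.5% to 92.5% against 66.3% to 94.5% and was the less frequent in Gzma cells in 5 of 6, lymph node library 2 being the exception. In all, 89 of the 355 Gzma cells held an Fcer1g UMI, 48 a Tyrobp UMI and 14 an Ncr1 UMI, so that most cells with an Fcer1g (787), Tyrobp (430) or Ncr1 (51) UMI held none of Gzma.

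As a share of each gene's UMIs, cells with Gzma UMIs contributed 17.2% and 20.7% of Fcer1g in liver. In spleen this share was 12.7% and 5.80%, and in lymph node 0% and 2.3%. For lymph node library 1, with 55 Fcer1g UMIs, the 0 allows a share of up to 5.45%. For Tyrobp the shares were 23.8% and 17% in liver, with 14.0% and 15.9% for spleen and 4.55% and 5.56% for lymph node. For Hcst they were 4.65% and 4.82%, 1.27% and 0.899%, and 0.276% and 0.663%. These shares can be read against the share of all UMIs that Gzma cells held, 5.81% and 5.43% in liver, with 1.55% and 1.93% for spleen and 0.551% and 0.728% for lymph node. Tyrobp lay above that share in 6 of 6 libraries, Fcer1g in 5 of 6, and Hcst lay below it in 6 of 6. In the lymph node libraries the Tyrobp share rested on 1 and 2 UMIs in Gzma cells. The share of all UMIs separated the libraries of the 3 organs in the same order as the shares of these 3 genes did, so the order of organs alone is not particular to them. Mean shares in liver, spleen and lymph node were 18.9%, 9.27% and 1.15% for Fcer1g, 20.4%, 15.0% and 5.05% for Tyrobp, and 4.74%, 1.08% and 0.470% for Hcst. The exact permutation test gave p = 0.0667 for each (adjusted p = 0.0667), the smallest it can give with 3 pairs of libraries. Ncr1 had no share in lymph node library 1, which held none of its UMIs, and was not tested. In cells with at least 2 Gzma UMIs, which numbered 80, 27 and 4 in the 3 organs, the mean shares were 12.0%, 5.13% and 0% for Fcer1g, 16.1%, 8.67% and 2.27% for Tyrobp, and 1.26%, 0.376% and 0.0916% for Hcst. Those cells held 1.57%, 0.703% and 0.123% of all UMIs.

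**Figure D3:**
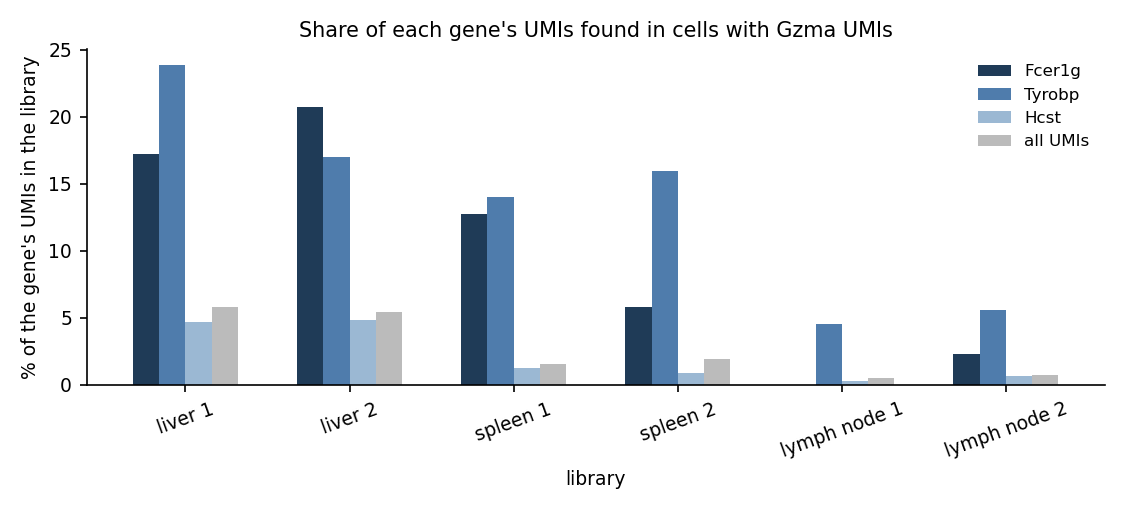
Share of each gene's UMIs (percent, vertical axis from 0) that lay in cells with a Gzma UMI, by library, with the share of all UMIs in grey. Bars of Tyrobp exceed the grey bar in 6 of 6 libraries and bars of Hcst stay below it in 6 of 6.

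Cells without Gzma UMIs still differed between organs. They can include cells whose Gzma RNA was not captured, since 244 of the 355 Gzma cells held a single Gzma UMI. The part of such cells was not tested. Without Gzma cells, Fcer1g exceeded its lymph node level by 1.75 ± 0.22 log2 units in liver (edgeR adjusted p = 5.37e-06) and by 1.15 ± 0.24 in spleen (edgeR adjusted p = 0.00191). Liver over spleen was 0.60 ± 0.19 (edgeR adjusted p = 0.0322), a call lost without liver library 2 (0.30), without spleen library 2 (0.46) and in DESeq2 (0.60, adjusted p = 0.092). Among the 10178 genes tested, 37.0% were called for liver over lymph node, 18.3% for spleen over lymph node and 25.1% for liver over spleen. Tyrobp gave 2.10 ± 0.26 for liver over lymph node (edgeR adjusted p = 3.60e-07), 1.45 ± 0.24 for liver over spleen (8.80e-05) and 0.66 ± 0.31 for spleen over lymph node (0.159). Hcst gave 0.55 ± 0.12, -0.13 ± 0.12 and 0.68 ± 0.12 in the same order (edgeR adjusted p = 0.000543, 0.484 and 9.63e-05). Ncr1 did not pass the filter in these cells, where liver held 51 of its UMIs, spleen 14 and lymph node 1. Its level was 2.53 and 5.87 CPM in liver, 2.09 and 1.69 CPM in spleen and 0 and 0.276 CPM in lymph node, and both liver libraries lay above the others. The summed liver level was 2.15 times that of spleen (exact 95% interval 1.17 to 4.2 for counting error only). Over lymph node, with its 1 UMI, the interval of this ratio ran from 5.14 to 1207. With all genes kept, edgeR did not call liver over spleen (1.07 ± 0.50, adjusted p = 0.139) and called both differences from lymph node (adjusted p = 1.21e-06 for liver and 0.00963 for spleen), whose fitted values of 4.65 ± 0.87 and 3.58 ± 1.07 rest on that 1 UMI. With a library left out and the filter applied, Ncr1 missed the threshold for spleen over lymph node in 3 fits. These were without spleen library 1 (3.45), lymph node library 1 (2.70) or lymph node library 2 (6.22). In the last of these no Ncr1 UMI remained in lymph node, and the value of 6.22 is no bound.

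Inside the Gzma cells the sums were small, and only 1410 genes passed the filter. Fcer1g gave 0.08 ± 0.59 log2 units for liver over spleen, 2.70 ± 1.45 for liver over lymph node and 2.62 ± 1.57 for spleen over lymph node (edgeR adjusted p = 0.969, 0.398 and 0.672). Liver over spleen was -0.62 without spleen library 2 and 1.25 at its highest, so its sign was not settled. Fcer1g passed the filter through both liver libraries and spleen library 1, and its lymph node side rested on 2 UMIs. As a ratio of summed levels, it was 6.16 times higher in liver than in lymph node (exact 95% interval 1.68 to 51.2 for counting error only). Liver over lymph node passed the threshold for Fcer1g without liver library 1 (3.17), spleen library 1 (2.85) or spleen library 2 (2.78), and spleen over lymph node without spleen library 2 (3.4). Hcst gave 0.41 ± 0.23, 0.92 ± 0.31 and 0.51 ± 0.34 (edgeR adjusted p = 0.316, 0.05 and 0.668). The called value of Hcst sat at the threshold itself and was lost without either liver library (0.99 and 0.96) or lymph node library 1 (0.72). The shares of all genes called were 7.02%, 7.94% and 1.77%, and Tyrobp and Ncr1 did not pass the filter.

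Whether the effect of the Gzma gate differed between organs was tested as an interaction, in which the median over all genes was 0.32 for liver over spleen, 0.86 for liver over lymph node and 0.41 for spleen over lymph node. Of 9701 genes, 0.247%, 0.711% and 0.113% were called. Among the members, only Hcst passed, for liver over spleen, at 0.65 ± 0.16 (edgeR adjusted p = 0.0361), which is 0.33 above the median gene. With each library left out in turn, the value was lowest without spleen library 2. In that library Gzma cells stood at 716 CPM against 1554 CPM, while spleen library 1 (1329 against 1627 CPM) was like liver library 1 (1275 against 1613 CPM). The call was lost without spleen library 2 (0.26), liver library 1 (0.67), liver library 2 (0.50) or lymph node library 2 (0.57), in DESeq2 (0.41), with its size factors (0.38) and with all genes kept (0.55). Between liver and spleen Fcer1g differed by -0.43 ± 0.34 (edgeR adjusted p = 0.924) and Tyrobp by -0.99 ± 0.55 (0.870), and over lymph node neither passed (Fcer1g 1.47 ± 0.98 in liver and 1.89 ± 0.99 in spleen, Tyrobp -0.37 ± 1.05 and 0.62 ± 1.08). For Ncr1, for which the Gzma cells of the 3 organs held 21, 1 and 2 UMIs, none of the 3 differences passed (edgeR adjusted p = 0.946, 0.669 and 0.976).

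Summed over the libraries, the ITAM adaptors, Ncr1 and Gzma were found together in cells more often than independent detection within each library would give. Fcer1g and Tyrobp UMIs were both present in 122 cells against 30.6 expected, a ratio of 3.99 that ranged from 3.13 to 16.8 over libraries. For Fcer1g and Ncr1 the ratio was 7.81 (29 cells), for Tyrobp and Ncr1 9.73 (22 cells), for Fcer1g and Gzma 3.46 (89 cells), for Tyrobp and Gzma 3.06 (48 cells) and for Ncr1 and Gzma 7.47 (14 cells). Over libraries the ratio for Tyrobp and Gzma ranged from 2.01 to 21.6. Each of the other 4 pairs had a ratio of 0 in 1 library, where at most 0.171 cells were expected, and a highest ratio of 7.59 (Fcer1g and Gzma), 23.1 (Fcer1g and Ncr1), 27.2 (Tyrobp and Ncr1) or 119 (Ncr1 and Gzma, 1 cell). Pairs with Ncr1 have no ratio in lymph node library 1. Pairs with Hcst had ratios between 0.970 and 1.1 (0.750 to 1.51 over libraries). An Hcst UMI was found in 13584 of 16532 cells, so ratios far above 1 were not possible for these pairs. They are therefore no contrast to the other pairs. All pairs share cell depth, and its part in the ratios was not tested. These ratios are descriptions across cells, and cells of 1 library are not replicates.

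**Figure D4:**
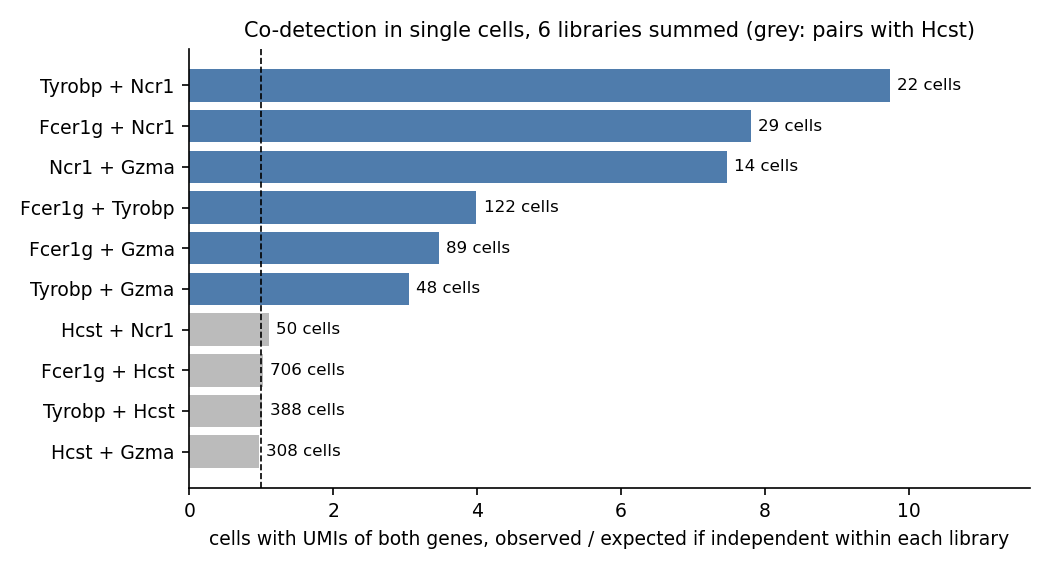
Cells with UMIs of both genes of a pair, as observed over expected under independence within each library (horizontal axis, from 0), summed over the 6 libraries. The dashed line marks a ratio of 1, and the number of cells stands beside each bar. Pairs of Fcer1g, Tyrobp, Ncr1 and Gzma lie between 3.06 and 9.73. Pairs with Hcst lie near 1 and, as most cells held an Hcst UMI, could not lie far above it.

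The 122 cells with both ITAM adaptors were 48 and 45 in the liver libraries, with 13 and 8 from spleen and 1 and 7 from lymph node. They held 27.2% of all Fcer1g UMIs and 46.4% of all Tyrobp UMIs. A Cd3 UMI was found in 119 of them, at least 2 iNKT1 markers in 83, at least 2 iNKT17 markers in 9, and at least 2 myeloid markers in 14. An Hcst UMI was found in 103, a Gzma UMI in 25 and an Ncr1 UMI in 21. Klra4, Klra8, Klre1 or Eomes, which are typical of NK cells, was counted in 59, namely 28 and 23 in liver, 6 and 2 in spleen and none in lymph node. Their median depth was close to that of all cells in liver, 3554 against 3592 UMIs in library 1 and 2866 against 2880 in library 2. It was lower in spleen (1621 against 1724 and 1221.5 against 1554) and higher in lymph node (1965 against 1730.5 and 1601 against 1470). Doublets were limited only by the upper bound on genes per cell, and their part in these counts was not tested.

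iNKT1 cells are the T-bet-driven, interferon gamma-producing kind of iNKT cell, and iNKT17 cells the kind that makes interleukin 17. Cells with UMIs of at least 2 iNKT1 markers (Tbx21, Il2rb, Klrb1c, Cxcr3) and fewer than 2 iNKT17 markers were compared with cells of the opposite kind, using 10 iNKT17 markers such as Il23r and Ccr6. These gates held 5624 and 2034 cells. They depend on depth, since a deeper cell shows more markers.

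Fcer1g was higher in the iNKT1 gate within each of the 6 libraries. It was 70.9 and 96.4 CPM against 0 and 19.8 CPM in liver, 82.3 and 39.5 CPM against 38.7 and 23.0 CPM in spleen, and 28.3 and 32.2 CPM against 9.66 and 14.0 CPM in lymph node. The 0 of liver library 1 came from 54 cells and allows up to 23.8 CPM. The iNKT17 gate lay -1.66 ± 0.30 log2 units from the iNKT1 gate, at 0.317 of its level (edgeR adjusted p = 0.000323), where 8.74% of 6193 genes were called. Hcst was also lower in the iNKT17 gate in 6 of 6 libraries. It was 1616 and 1476 CPM against 1357 and 1164 CPM in liver, 1724 and 1501 CPM against 959 and 1115 CPM in spleen, and 1370 and 1235 CPM against 949 and 835 CPM in lymph node. The difference was -0.52 ± 0.07 (edgeR adjusted p = 9.77e-06).

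Tyrobp did not pass the filter in this comparison. Its level was 37.5 and 41.8 CPM in the iNKT1 gate against 15.9 and 19.8 CPM in the iNKT17 gate in liver, 16 and 18.6 CPM against 15.5 and 11.5 CPM in spleen, and 0 and 8.05 CPM against 8.17 and 13.3 CPM in lymph node, where the order was the other way. The 0 of lymph node library 1 allows up to 9.43 CPM. The lymph node order rested on 0 and 2 UMIs in the iNKT1 gate against 11 and 18 UMIs in the iNKT17 gate. Of the 11 UMIs, 6 lay in 1 cell that also held at least 2 myeloid markers. With all genes kept, the difference was -0.37 ± 0.39 (edgeR adjusted p = 0.854). Ncr1 did not pass the filter either. In liver 67 of its UMIs lay in the 3728 cells of the iNKT1 gate (5.24 and 9.66 CPM) and none in the 124 cells of the iNKT17 gate, where the 0 allows up to 23.8 and 19.8 CPM, so a difference was not detectable at this depth. Spleen had 8 UMIs in 1468 cells against 1 in 124, and lymph node 2 in 428 against 0 in 1786. With all genes kept the difference was -3.01 ± 1.26 (edgeR adjusted p = 0.186).

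**Figure D5:**
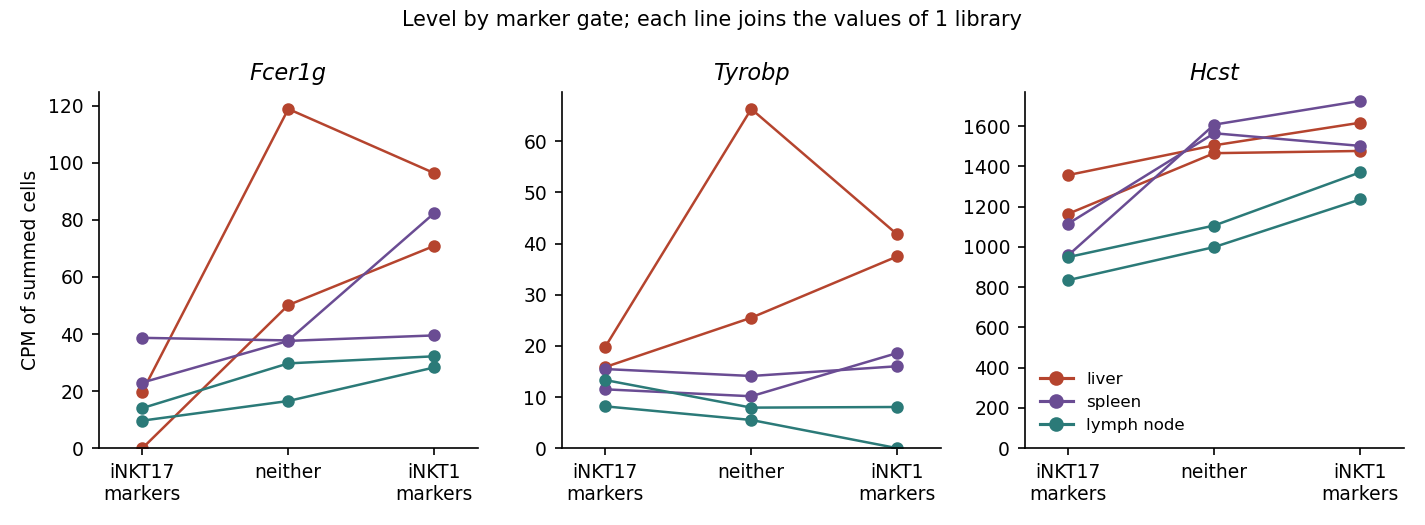
Level in CPM (vertical axis, linear, from 0) in cells of the iNKT17 marker gate, of neither gate and of the iNKT1 marker gate, with 1 line per library and colours for the organs. Fcer1g and Hcst were higher in the iNKT1 gate than in the iNKT17 gate in 6 of 6 libraries, and Tyrobp in both liver and both spleen libraries but in neither lymph node library. The iNKT1 gate of the lymph node libraries held 0 and 2 Tyrobp UMIs.

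The organs differ in how many cells fall in these gates. The iNKT1 marker list summed to 1720 to 1795 CPM in liver, 855 to 1066 CPM in spleen and 391 to 427 CPM in lymph node, and the iNKT17 list to 251 to 305 CPM, 117 to 155 CPM and 1304 to 1389 CPM. The iNKT1 gate alone was an alternative chosen after the data were seen. Of 8203 genes tested in it, 1129 were called for liver over spleen, 748 for liver over lymph node and 181 for spleen over lymph node. Liver over lymph node was 1.37 for Fcer1g (edgeR adjusted p = 0.0354). Liver over spleen was 1.13 for Tyrobp (edgeR adjusted p = 0.00406) and 0.32 for Fcer1g (0.390). Tyrobp held 2 UMIs in the lymph node cells of this gate and passed the filter through the liver and spleen libraries alone. Its summed level in liver was 11.2 times that of lymph node (exact 95% interval 3.07 to 92.5 for counting error only). Ncr1 did not pass the filter there, and its summed level in liver was 1.96 times that of spleen (0.939 to 4.72) and 2.04 times that of lymph node (0.544 to 17.2), both intervals including 1. The Hcst differences from lymph node were 0.14 for liver (edgeR adjusted p = 0.589) and 0.28 for spleen (0.409) and passed no threshold there. Fcer1g spleen over lymph node was 1.06 (edgeR adjusted p = 0.303). The lymph node sums in this gate came from 228 and 200 cells.

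Receptors that pair with the adaptors, the CD3 and zeta chains, and the kinases, linkers and inhibitors below them made a list of 57 genes besides the members, of which 39 were tested in all cells. For liver over spleen, where 25.6% of all genes were called, 16 were higher and 3 lower, with a median of 0.29 against 0.02 for all genes. For liver over lymph node, where 37.5% of all genes were called, these counts were 18 and 7 (median 0.25 against 0.01). For spleen over lymph node, where 18.2% were called, they were 10 and 3 (median 0.02 against 0.01). Of the listed receptors, most of those known from myeloid cells, such as Trem2 and Fcgr1, were too low to be tested.

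Klrc2, the activating NKG2C receptor that uses DAP12, exceeded its lymph node level by 2.51 ± 0.15 log2 units in liver and 1.69 ± 0.16 in spleen, and Klrb1c (NK1.1, an Fc receptor gamma partner) by 2.00 ± 0.12 and 1.26 ± 0.12. Klrk1, the NKG2D gene and partner of DAP10 and DAP12, did so by 1.16 ± 0.12 and 0.71 ± 0.12. Liver exceeded spleen by 0.83 ± 0.13 for Klrc2, 0.74 ± 0.12 for Klrb1c and 0.46 ± 0.12 for Klrk1. All these values were called by edgeR. Klrb1a, another member of the Klrb1 family, was counted at 4.81 and 5.20 CPM in the lymph node libraries (18 and 19 UMIs) and at 0.258 to 0.829 CPM in the other 4 (1 to 5 UMIs). It passed the filter, with its limit of 2.62 CPM, only through lymph node, so its calls against liver (-3.05 ± 0.55) and spleen (-3.15 ± 0.66) are those of a gene let in by its high organ. Reads of near-identical family members can be assigned to the wrong copy, which was not tested for Klrb1a, Klrb1c or Klrc2.

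Below the receptors, Pik3cd, the PI3-kinase delta subunit, was higher in liver than in spleen by 1.22 ± 0.13 and Plcg1, a phospholipase, by 0.92 ± 0.16. The brakes Ubash3a and Cblb were also higher, by 0.81 ± 0.21 and 0.80 ± 0.16. Sh2d1a, the SAP adaptor of iNKT development (-0.54 ± 0.11), and Cd3e (-0.49 ± 0.13) were lower. Over lymph node, Ubash3a stood at 2.33 ± 0.25 in liver and 1.52 ± 0.29 in spleen and the exchange factor Vav3 at 1.70 ± 0.20 and 1.43 ± 0.21. Grb2, the linker bound by DAP10, was lower than in lymph node in liver (-0.77 ± 0.12) and in spleen (-1.29 ± 0.13), as was Ubash3b (-0.79 ± 0.14 and -0.54 ± 0.15). Cd3e and Cd3g were lower in liver than in lymph node, by -0.75 ± 0.13 and -0.50 ± 0.13. All these passed edgeR's test. The linker Card9 also passed, at -1.84 ± 0.47 for liver over spleen and 1.79 ± 0.54 for spleen over lymph node, but it was let in by the filter only through the spleen libraries (4.38 and 4.97 CPM, against 0.802 to 1.92 CPM elsewhere).

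For the Gzma gate, where 1.92% of all genes were called, 2 of 35 listed genes tested were called. Klrk1 was higher in Gzma cells (0.67 ± 0.13, edgeR adjusted p = 0.000102) and Cd3g lower (-0.44 ± 0.12, edgeR adjusted p = 0.0227). The call of Klrk1 was lost without spleen library 1. That of Cd3g was lost in DESeq2, at 2 or more Gzma UMIs, with thinned cells, without myeloid-marked and B cell-marked cells, and without either spleen library or lymph node library 1. Over the alternatives, 0 to 2 listed genes were called higher and 0 to 6 lower. In the iNKT17 gate, where 8.74% of all genes were called, 5 of 31 tested genes were lower than in the iNKT1 gate and none higher (3 to 8 lower and 0 to 1 higher over the alternatives). These were Klrk1 (-1.24 ± 0.25), the inhibitor Dok2 (-0.67 ± 0.11), the kinase Lck (-0.38 ± 0.08), Sh2d1a (-0.32 ± 0.10) and Cd3d (-0.26 ± 0.07). Inside Gzma cells, 2 of 16 listed genes tested were called higher in liver than in lymph node, where 7.94% of all genes were called. Klrb1c was called (1.62 ± 0.54, edgeR adjusted p = 0.0452), with 1 and 5 UMIs in the lymph node libraries. Klrc2 was called as well (edgeR adjusted p = 0.00568), but had 73 and 69 UMIs in liver against 0 in both lymph node libraries and passed the filter only through liver and spleen library 1, so its fitted difference is no bound and is not given. The lymph node side of these values was 23 cells, and no listed gene was called higher in DESeq2 or without lymph node library 1. Without either liver library, without lymph node library 2 or with the replicate block, 1 listed gene was called.

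The genes whose levels ran most like those of a member were sought over the 12 sums of cells with and without Gzma UMIs, among 8632 genes, by Pearson's r of log2 CPM. For Fcer1g these were 1700025G04Rik (0.970), Txn1 (0.961) and Klrd1 (0.951), the CD94 gene of NK receptors. For Tyrobp they were the cell cycle genes Cdc25b (0.939), Cdc20 (0.928) and Ube2c (0.918), and for Hcst Fam189b (0.988), Arhgap15 (0.965) and Kdm5a (0.963). Among the members, r was 0.57 for Fcer1g and Tyrobp, 0.58 for Fcer1g and Hcst and -0.18 for Hcst and Tyrobp. The 12 sums come in pairs from 6 libraries, those of Gzma cells are shallow, and the values are descriptions.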

How the data were processed

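The deposited matrices hold raw counts of UMIs per gene and cell barcode for 6 libraries. Per the labels the authors made 10x Genomics 3′ v2 libraries, and the submitters' processing notes name Cell Ranger 3.1.0, Seurat and mm10. Other deposited lists give the barcodes and the gene identifiers with their symbols. The labels name the molecule as nuclear RNA, although whole sorted cells are described. The annotation version is not given in the sources used here.

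With the limits the study states, 55 of 16587 barcodes were dropped: 2 held under 300 genes, 10 more than 4000, and 45 more than 15% mitochondrial UMIs, with 2 barcodes past more than 1 limit. The study also removed cells with both Xist and Y-chromosome genes, which 0 of the cells kept here held, and it states fewer cells than the 16532 kept, a gap not settled here. Ribosomal protein, rRNA and haemoglobin genes (170) were also left out (23.2% to 34.5% of a library's UMIs). No doublet caller was run. Members, lists, gates and tests were chosen with earlier results of these data known. UMIs were summed per library, or per library and gate, and tested in R 4.3.3 with edgeR 4.0.16 (minimum count of 10 in filterByExpr, TMM, robust glmQLFit, glmQLFTest, Benjamini-Hochberg adjustment over all genes tested, threshold 0.05). Organ comparisons used all 6 libraries in 1 fit, and gate comparisons used the library as a block. CPM is per 1000000 UMIs of the genes kept. Shares were compared by exact permutation tests in Python 3.11.15 with scipy 1.17.1. Intervals and limits from counts of 0 (3 UMIs) cover counting error only. All 4 members were to be described in every comparison, by counts and levels where one did not pass the filter. From the pathway list, up to 5 genes called in each direction with the largest differences were named, and for each member the 3 genes with the highest r. The test was checked on simulated data. Alternatives were DESeq2 1.42.0, other scalings, filters, gates and cell sets, a replicate block, and each library left out.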

Additional observations from a re-analysis of the deposited data

Results flagged for a closer look

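The effect of the Gzma gate was compared between organs by an interaction test in edgeR. Calls were made for 1 member and for 2 of the 39 tested genes of the receptor and signalling list. Of 9701 genes, 0.247% were called for liver over spleen, 0.711% for liver over lymph node and 0.113% for spleen over lymph node. Hcst differed by 0.65 log2 units between liver and spleen (adjusted p = 0.0361), 0.33 above the median of all genes. Klrk1, the NKG2D gene, differed by -0.99 between liver and spleen (adjusted p = 0.000131), -1.31 relative to the median, so that its excess in Gzma cells was larger in spleen. Cd3g differed by 0.72 between liver and lymph node (edgeR adjusted p = 0.0106). The median gene stood at 0.86 there, so Cd3g, at -0.14 relative to it, lay near the shift of all genes. These sums rest on 264 liver, 68 spleen and 23 lymph node cells with Gzma UMIs. The Hcst call was lost in DESeq2 (0.41), with DESeq2's size factors (0.38), with all genes kept (0.55), and without spleen library 2 (0.26), either liver library or lymph node library 2. The Klrk1 call was lost without either liver library, and that of Cd3g in DESeq2, with DESeq2's size factors, with all genes kept, and without either liver or either lymph node library.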

How the results depend on the processing

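Of 577 alternatives for 51 values of the members, 515 kept direction and side of the threshold, 29 lost the call, 23 gained it and 10 changed sign. The shares stayed higher in liver than in lymph node in all alternatives run, whereas Hcst, found in fewer liver than spleen cells after thinning, was found in more without it (92.4% against 84.3%). Chosen after seeing the data were the alternatives of the interaction, cells without any myeloid or B cell marker, the iNKT1 gate alone, and for the shares each library left out and, for thinned shares of cells, the cells without 2 such markers. For the cells without any such marker, the listed myeloid marker Cst3 was not counted, so cells with only Cst3 were kept. Where a call changed, the cause was not tested, and each value follows in log2 units. In all cells, Fcer1g liver over spleen gained its call in DESeq2 (0.70), with all genes kept (0.74), with the replicate block (0.67), without cells with 2 myeloid or B cell markers (0.57), in Cd3-positive cells (0.66) and without cells with any such marker (0.60), and Ncr1 lost it in DESeq2 (1.39). Tyrobp spleen over lymph node gained its call with all genes kept (0.80), the replicate block (0.82), without cells with 2 myeloid or B cell markers (1.51), in Cd3-positive cells (0.82) and without cells with any such marker (1.51). In the iNKT1 gate alone, Hcst over lymph node lost its calls in liver (0.14) and spleen (0.28), and Fcer1g in spleen (1.06). For Gzma cells over others, Hcst lost its call in DESeq2 (-0.49), at 2 or more Gzma UMIs (-0.93) and with the gate set on thinned cells (-0.55). Inside Gzma cells, liver over lymph node gained a call for Fcer1g with all genes kept (3.11) and lost it for Hcst in DESeq2 (0.92), with its size factors (0.90) and with the replicate block (0.91). Outside them, Fcer1g liver over spleen lost its call in DESeq2 (0.60). In the interaction, Hcst liver over spleen lost its call in DESeq2 (0.41), with its size factors (0.38) and with all genes kept (0.55), and spleen over lymph node turned sign in DESeq2 and with its size factors (-0.016 and -0.019). With each library left out, all-cell values ranged from 0.37 to 0.99 for Fcer1g, 0.82 to 1.82 for Ncr1 (liver over spleen), 0.96 to 1.63 for Fcer1g, 0.48 to 1.19 for Tyrobp and 1.29 to 6.36 for Ncr1 (spleen over lymph node). For the Gzma gate Hcst ranged from -0.70 to -0.48. Inside Gzma cells Fcer1g ranged from -0.62 to 1.25 for liver over spleen (-0.45 without liver library 2). It ranged from 1.96 to 8.59 for liver over lymph node and from 1.59 to 8.52 for spleen over lymph node. Without lymph node library 2 no Fcer1g UMI remained on the lymph node side, and those fitted values are no bound. Hcst in Gzma cells ranged from 0.72 to 1.5. Outside them Fcer1g liver over spleen ranged from 0.30 to 0.87. In the interaction, liver over spleen ranged from -0.99 to 0.52 for Fcer1g, 0.26 to 1.02 for Hcst and -0.074 to 8.21 for Ncr1, liver over lymph node from -4.63 to 2.79 for Ncr1, and spleen over lymph node from -0.31 to 0.73 for Hcst (-0.29 without spleen library 1) and -12.53 to 1.81 for Ncr1. A lone library left in an organ was taken to vary like the others. Deviations of same-numbered libraries from their organ means correlated at 0.086, 0.083 and 0.067. With 2 libraries per organ, this cannot decide whether such libraries shared more than a number. Replicate numbers pair no samples by the labels, and the replicate block moved the genes called in all cells from 2609 to 3029 (liver over spleen), 3825 to 4132 and 1856 to 2109 (over lymph node). DESeq2 called 1417, 2559 and 1119 genes there. Over all alternatives these comparisons called 1129 to 3029, 748 to 4132 and 181 to 2109 genes. Of the listed receptor and signalling genes, 6 to 18 were higher and 1 to 5 lower in liver than in spleen, 4 to 20 higher and 3 to 7 lower in liver than in lymph node, and 1 to 10 higher and 2 to 6 lower in spleen than in lymph node. The Gzma gate called 42 to 265 genes (166 as reported), the interaction 1 to 30, 1 to 69 and 1 to 16, and the iNKT17 gate 188 to 794 (541). The Gzma share on cells thinned to 1000 UMIs gave exact permutation p = 0.133 for Fcer1g and 0.467 for Tyrobp. Depth limits Ncr1 in all organs and every value inside the 23 lymph node Gzma cells.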

Other observations

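Each UMI count stands for 1 RNA molecule captured, so the ITAM adaptors can be set against each other within a library. Fcer1g was counted at 1.91 and 2.01 UMIs per Tyrobp UMI in liver, against 3.58 and 3.14 for spleen and 2.5 and 2.42 for lymph node, and both liver values lay below the others. Without the cells with at least 2 myeloid or B cell markers, an alternative chosen after seeing the data, the ratio was 1.90 and 2.21 in liver, against 3.58 and 3.14 for spleen and 3.4 and 3.6 for lymph node, where spleen and lymph node overlapped. In the 88 cells with at least 2 myeloid markers, Fcer1g and Tyrobp UMIs were each found in 18 cells (20.5%), at 484 and 381 CPM, while Hcst was found in 84.1% of them and Ncr1 in 1 cell. Cells of neither the iNKT1 nor the iNKT17 marker gate held Fcer1g at 50.1 CPM in liver library 1 and 119 CPM in liver library 2, and Tyrobp at 25.5 and 66.3 CPM. The liver cells with at least 2 markers of each kind (216 and 231 cells) held Fcer1g at 35.8 and 35.3 CPM.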
